A study of Mus musculus with 10 samples.

Results

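The MHC class II genes described here are the 7 genes H2-Aa, H2-Ab1, H2-Eb1, Cd74, Ciita, H2-DMa and H2-DMb1, found by symbol among the 54532 genes of an RNA-seq table from mouse retina. Whole neural retinas were sequenced in 2 groups of 5. The mice were 2 months old and of the albino strain BALB/c, and those of both groups spent 12 hr in darkness beforehand. The NL group then received normal light of 200 lux, and the LD (light damage) group received 15000 lux for 1 day. The NL retinas carry the numbers 1, 4, 5, 7 and 8 and the LD retinas the numbers 1, 4, 6, 7 and 8. No engineered allele is named for either group, and the labels give neither sex, litter nor whether a sample is 1 retina or a pool. The question put to these genes was whether their transcripts differed between the LD and NL retinas.

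MHC class II molecules are pairs of an alpha and a beta chain that display peptides from the endosome to CD4+ T cells. In BALB/c mice the I-A molecule is made of the H2-Aa and H2-Ab1 products, and the I-E molecule of the H2-Eb1 product and the alpha chain from H2-Ea. Cd74 encodes the invariant chain, which fills the groove of newly made molecules and carries them to the endosome. H2-DMa and H2-DMb1 encode the subunits of H2-DM, which exchanges the last piece of the invariant chain for peptide. CIITA, the product of Ciita, binds no DNA itself and acts through factors sitting on the X and Y boxes shared by class II promoters. Its relative NLRC5 acts on class I genes. Dendritic cells, B cells and macrophages are the usual class II bearing cells, while the microglia of a resting retina carry little.

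The letters of these boxes can be read in the promoters of the 3 members that passed the test below, and in that of H2-DMb2, a near copy of H2-DMb1 that stayed close to 0. The stretches run from 160 to 31 bases before the transcript start that RefSeq gives on GRCm38.p6, 5′ to 3′ on the gene's own strand. Capitals mark GNAAC, taken from the X box, and ATTGG, the core of the Y box, where the second follows the first after 20 to 40 bases. They also mark the cyclic AMP element TGACGTCA beside the X box of H2-Aa, and a lone ATTGG in H2-DMb2. The stretches lie at chr17:34287854-34287983 (minus strand) for H2-Aa, chr17:34305707-34305836 (plus) for H2-Eb1, chr17:34153031-34153160 (plus) for H2-DMb1 and chr17:34145089-34145218 (plus) for H2-DMb2. By the deposited positions, the H2-DMb1 stretch spans the start of the gene and the H2-DMb2 stretch lies inside it.
H2-Aa: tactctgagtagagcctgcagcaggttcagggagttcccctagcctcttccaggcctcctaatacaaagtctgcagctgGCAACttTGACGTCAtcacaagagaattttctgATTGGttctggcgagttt
H2-Eb1: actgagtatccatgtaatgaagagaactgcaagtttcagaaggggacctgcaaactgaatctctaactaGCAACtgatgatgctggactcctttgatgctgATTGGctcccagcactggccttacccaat
H2-DMb1: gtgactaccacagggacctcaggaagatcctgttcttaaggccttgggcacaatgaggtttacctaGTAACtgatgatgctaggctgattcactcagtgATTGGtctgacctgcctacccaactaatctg
H2-DMb2: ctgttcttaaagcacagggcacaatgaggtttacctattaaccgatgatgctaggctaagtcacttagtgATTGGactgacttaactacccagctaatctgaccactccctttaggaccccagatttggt
In the 300 bases around the start, GNAAC was followed by ATTGG after 28 bases in H2-Aa and H2-DMb1 and after 27 bases in H2-Eb1, whereas the pair was not found in H2-DMb2. Of the 32851 promoters in the same table, 3.41% held the pair on either strand. GNAAC alone was in 84.8%, ATTGG in 37.4% and TGACGTCA in 1.79% of them. The promoters of H2-Eb2, H2-Oa and H2-Ob, whose levels stayed near 0 in both groups, held the pair too, after 27, 28 and 25 bases. The letters were chosen after these sequences had been seen, and a match is a description and not a site. The RefSeq starts of H2-DMa lay 9615 to 12301 bases away from the start of the deposited gene, so its promoter is not shown.

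All 7 members were detected, and each passed the filter of 0.1 FPKM (fragments per kilobase corrected for sequencing depth, the unit of the deposited table) in at least 5 retinas. A gene was called when its limma test gave a Benjamini-Hochberg adjusted p under 0.01 and its fold change on the log2(FPKM + 0.1) scale exceeded 2, the thresholds the study names. Of the 7 members, 3 were called higher after LD (H2-DMb1, H2-Eb1 and H2-Aa), 0 were called lower and 4 were not called. Among all 24508 genes tested, 4.13% were called higher and 2.37% lower. In the same 3 members every LD retina lay above every NL retina, as it did in 11.8% of all genes tested. At an adjusted p under 0.05 with no fold minimum the count was 5 of 7, with Cd74 and H2-DMa added, against 14.5% of all genes called higher under that rule. The median log2 fold change of the members was 1.22, beside −0.01 over all genes tested. H2-Aa, H2-Ab1, H2-Eb1 and H2-DMb1 passed the filter only with their LD values, since 2, 4, 3 and 3 of the NL retinas reached it.

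These were low levels. The 7 genes together took 190 to 304 reads in an NL retina and 322 to 429 in an LD retina, out of 18965090 to 26832535. Most of these reads were those of H2-DMa (72 to 121 in NL, 104 to 177 in LD) and Ciita (83 to 133 and 69 to 107). The chain genes H2-Aa, H2-Ab1 and H2-Eb1 together took 3 to 25 reads in NL and 33 to 73 in LD. The summed level of the 7 genes was 3.76 to 5.0 FPKM in NL and 7.42 to 10.8 FPKM in LD, without overlap. It was highest in LD-4 (10.8) and LD-6 (10.4). In whole tissue, more cells of a type and more RNA per cell cannot be told apart. NL-1 stood high among the NL retinas in several genes of macrophages and glia, and without it the number of members called was 4, with Cd74 added. LD-4 and LD-6, LD-1 and LD-7, and NL-5 and NL-7 were more alike than other pairs of their groups. The chi-square per gene between their read counts was 2.52, 3.41 and 2.71, beside 10.89 to 38.55 in the other pairs. Xist, the RNA of the inactive X chromosome, exceeded 1 FPKM in 2 retinas of each group, namely NL-4, NL-8, LD-4 and LD-6. With its presence as a covariate, the number of members called was again 3.

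**Figure D1:**
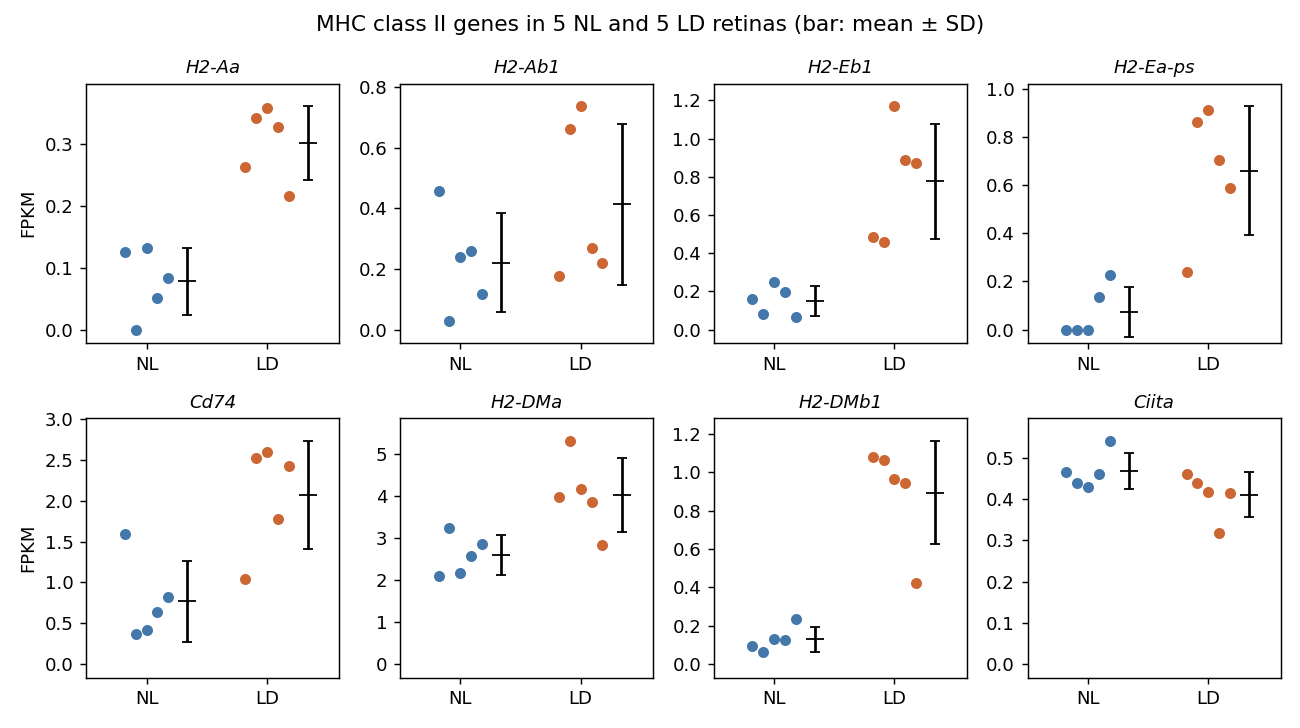
FPKM (y axis, linear, a scale of its own in each panel) of the 7 members and H2-Ea-ps in the 5 NL (blue) and 5 LD (orange) retinas, drawn from left to right in the order of their numbers, with the mean ± SD as a black bar. The groups separate in H2-Aa, H2-Eb1, H2-Ea-ps and H2-DMb1, overlap through NL-1 and LD-1 in Cd74, and overlap widely in H2-Ab1 and Ciita.

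Both I-E genes were called higher, on few reads. H2-Eb1, the I-E beta chain gene at chr17:34305877-34316199, had 0.16, 0.08, 0.25, 0.20 and 0.07 FPKM in NL-1, NL-4, NL-5, NL-7 and NL-8. It had 0.48, 0.46, 1.17, 0.89 and 0.87 FPKM in LD-1, LD-4, LD-6, LD-7 and LD-8. LD-1 and LD-4 were the lowest LD retinas and still lay above the highest NL retina. The mean went from 0.150 ± 0.078 to 0.775 ± 0.302 FPKM (SD, n = 5 each), and the log2 fold change was 1.79 ± 0.30 (SE, limma adjusted p = 0.00136). Behind these values were 2 to 6 reads in an NL retina and 11 to 31 in an LD retina.

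The partner of this chain appears in the table as H2-Ea-ps, chr17:34342933-34344643, because the C57BL/6 reference mouse has a defective H2-Ea. BALB/c carries a working copy. It is not among the 7 members. It had 0, 0, 0, 2 and 4 reads in the NL retinas and 4, 12, 14, 11 and 9 in the LD retinas, both in the order of their numbers. LD-1 was the lowest LD retina, with as many reads as NL-8, the highest NL retina, but with a higher FPKM (0.24 beside 0.23). The mean was 0.0727 ± 0.104 FPKM in NL and 0.662 ± 0.269 in LD, and the log2 fold change was 2.24 ± 0.43 (SE, limma adjusted p = 0.00295). It passed the filter only with its LD values, since 2 NL retinas reached it. The call was lost in 4 of 23 alternatives, with an adjusted p up to 0.0302: a pseudocount of 1, the replicate block, the same 8 retinas without it, and the averaging of the closest pairs.

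Of the I-A genes, H2-Aa was called higher and H2-Ab1 was not, and a difference between their changes was not shown. H2-Aa, the I-A alpha chain gene at chr17:34282744-34287827, had 0.12, 0, 0.13, 0.05 and 0.08 FPKM in the NL retinas and 0.26, 0.34, 0.36, 0.33 and 0.22 FPKM in the LD retinas. All 5 LD values lay above all 5 NL values, although the gene had at most 5 reads in an NL retina and 9 to 15 in an LD retina. Its log2 fold change was 1.22 ± 0.26 (SE, limma adjusted p = 0.00488), and the ratio of the means was 3.87. This call was lost in 10 of 23 alternatives, with a limma adjusted p up to 0.0597. Among them was the leaving out of NL-7, NL-8, LD-4, LD-6 or LD-7 (adjusted p between 0.0108 and 0.0144). The others were both changes of the pseudocount, the replicate block, the same 8 retinas without it, and the averaging of the closest pairs.

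H2-Ab1, the I-A beta chain gene at chr17:34263209-34269418, was not called. Its levels were 0.46, 0.03, 0.24, 0.26 and 0.12 FPKM in NL and 0.18, 0.66, 0.74, 0.27 and 0.22 FPKM in LD. LD-4 and LD-6 lay above all NL retinas, while LD-1, LD-7 and LD-8 lay within the NL range, whose top was NL-1. The log2 fold change was 0.69 ± 0.45 (SE), with a 95% interval of −0.31 to 1.68 and a limma adjusted p of 0.298. It was 0.40 without NL-4, the lowest NL retina, and 0.93 without NL-1, the highest. A change of the size seen in H2-Aa lies inside this interval. The log2 ratio of H2-Aa to H2-Ab1 within a retina, taken like all ratios between members on FPKM + 0.1, was −0.75 ± 0.50 in NL and −0.21 ± 0.58 in LD (SD, n = 5 each), and its change did not pass an exact permutation test (p = 0.159, adjusted p = 0.208 over the 21 pairs of members).

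The H2-DM subunits differed in size of change. H2-DMb1, at chr17:34153072-34160230, had 0.09, 0.06, 0.13, 0.13 and 0.23 FPKM in the NL retinas. In the LD retinas it had 1.08, 1.06, 0.96, 0.95 and 0.42 FPKM. LD-1, LD-4, LD-6 and LD-7 were close to each other, and LD-8 lay well below them but above all NL retinas. Its log2 fold change of 2.09 ± 0.28 (SE, limma adjusted p = 2.80e-04) was the largest of the 7 members, on 2 to 9 reads in NL and 14 to 39 in LD. H2-DMb1 and H2-DMb2 are 96.0% identical over 1045 aligned bases of transcript, and 4.71% of the windows of 150 bases in H2-DMb1 also occur in H2-DMb2. H2-DMb2 had 0 to 4 reads in NL and 2 to 3 in LD. How the counting split reads between the copies was not tested.

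H2-DMa, the alpha subunit gene at chr17:34135182-34139101, was the most abundant member per length in both groups. It had 2.11, 3.24, 2.16, 2.58 and 2.86 FPKM in NL and 3.97, 5.32, 4.17, 3.85 and 2.85 FPKM in LD. The LD retinas lay above all NL retinas except LD-8, which was at the level of NL-8. The log2 fold change was 0.61 ± 0.17 (SE, limma adjusted p = 0.0195), past neither threshold of the call. Within a retina, log2(FPKM + 0.1) of H2-DMa exceeded that of H2-DMb1 by 3.57 ± 0.47 in NL and by 2.09 ± 0.28 in LD (SD, n = 5 each). This narrowing of the difference (change −1.48) had an exact two-sided permutation p of 0.00794, the smallest that 5 against 5 retinas allow, and an adjusted p of 0.0417 over the 21 pairs. Without the pseudocount, which presses the ratio down at the low level of H2-DMb1, the differences were 4.43 ± 0.78 in NL and 2.22 ± 0.34 in LD (SD, change −2.21, exact permutation p = 0.00794). LD-8 was thus the lowest LD retina for both subunits. Both permutation tests took all retinas as separate units, the closest pairs included.

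Cd74, on chromosome 18 at bases 60803848 to 60812646, had the second highest mean level of the members in each group and was not called. Its levels were 1.59, 0.37, 0.42, 0.63 and 0.82 FPKM in NL and 1.05, 2.52, 2.60, 1.77 and 2.42 FPKM in LD, on 11 to 48 and 36 to 82 reads. NL-1 lay above LD-1, and the other LD retinas lay above all NL retinas. The log2 fold change was 1.42 ± 0.37 (SE, limma adjusted p = 0.0148). It was 1.70 (adjusted p = 0.00304) without NL-1 and 1.63 (adjusted p = 0.00697) without LD-1, and in either case Cd74 was called. The microglial gene Fcrls was at 1.42 FPKM in NL-1 and at 0.36 to 0.49 FPKM in the other NL retinas. Cd52, a surface antigen of leukocytes, was at 0.749 FPKM in NL-1 and 0.294 to 0.397 FPKM in the others. The part of these cells in the Cd74 value of NL-1 was not tested.

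Ciita, at chr16:10480059-10528418, did not pass the test in either direction. Its levels were 0.47, 0.44, 0.43, 0.46 and 0.54 FPKM in NL and 0.46, 0.44, 0.42, 0.32 and 0.41 FPKM in LD. The groups overlapped, NL-8 being the highest retina and LD-7 the lowest. The log2 fold change was −0.16 ± 0.15 (SE, limma adjusted p = 0.485), and its 95% interval of −0.49 to 0.17 leaves out a rise of the size of the called members. Ciita shares 329 of its 9535 exonic bases with Dexi, a gene on the opposite strand that had 668 to 802 reads in NL and 687 to 788 in LD, and the library kit does not mark strand. Spread evenly over Dexi, 65.5 to 78.7 of those reads in NL and 67.4 to 77.3 in LD would fall on the shared bases. Ciita itself had 83 to 133 reads in NL and 69 to 107 in LD. How many of its reads came from Dexi was not tested, so the interval holds for the counted value and not for the Ciita transcript alone.

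Each member's change was also set against that of each other member, as the log2 ratio of FPKM + 0.1 of the 2 within a retina. Of the 21 pairs, 7 had an adjusted p under 0.05 in the exact permutation test. Of these, 5 joined Ciita with H2-Aa, H2-Eb1, Cd74, H2-DMa or H2-DMb1, and the others joined H2-DMb1 with H2-DMa or H2-Aa. The pair of H2-DMb1 with H2-Aa depends on the pseudocount of 0.1, which exceeds the NL mean of H2-Aa (0.0778 FPKM). The log2 fold changes of H2-DMb1 and H2-Aa were 2.09 and 1.22 with it, and 2.73 and 2.26 with a pseudocount of 0.01. This pair was not tested without the pseudocount. H2-Aa, H2-Eb1 and H2-DMb1 passed the filter only with their LD values. The widest was Ciita to H2-DMb1, which went from 1.34 ± 0.31 in NL to −0.91 ± 0.51 in LD (SD, n = 5 each, exact p = 0.00794, adjusted p = 0.0417). These are ratios of the counted Ciita value, whose share of Dexi reads was not tested. Between H2-Ab1 and Ciita, the change of 0.84 did not pass (exact p = 0.135, adjusted p = 0.189).

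In order of mean level, the NL retinas had H2-DMa (2.59 FPKM), Cd74 (0.768), Ciita (0.467), H2-Ab1 (0.221), H2-Eb1 (0.150), H2-DMb1 (0.130) and H2-Aa (0.0778). Within NL retinas, neighbours from H2-Ab1 down, and Cd74 with Ciita, were no further apart than the SD of their log2 ratio. In LD the order was H2-DMa (4.03 FPKM), Cd74 (2.07), H2-DMb1 (0.895), H2-Eb1 (0.775), H2-Ab1 (0.413), Ciita (0.410) and H2-Aa (0.301). There, H2-DMb1 with H2-Eb1, and H2-Ab1 with Ciita, could not be separated in this sense.

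The other class II genes stayed near 0. H2-Oa and H2-Ob, which encode the H2-O inhibitor of H2-DM found in B cells, had at most 2 and 9 reads in any retina, and the beta chain gene H2-Eb2 had at most 2. None of these, nor H2-DMb2, reached the filter. The class II region of chromosome 17, from H2-Oa to H2-Ea-ps (chr17:34092340-34344643, 252.3 kb), holds 20 genes of the table, of which 13 were tested. Of these, 9 were called higher and 0 lower. They were H2-DMb1, H2-Aa, H2-Eb1, H2-Ea-ps and a group that lies between H2-DMb1 and H2-Ab1 and serves mainly the class I pathway. That group is made of Psmb8 and Psmb9, subunits of the immunoproteasome, Tap1 and Tap2, the peptide transporter, and Gm15821, which lies within Tap2 on the other strand and cannot be told apart from it where their exons overlap. Psmb9 and Tap1 also overlap at their starts on opposite strands. Tap1, with a log2 fold change of 4.37 ± 0.24 (SE), rose from 0.378 ± 0.120 to 9.87 ± 2.85 FPKM (limma adjusted p = 6.79e-07). Brd2, Gm20493, H2-DMa and H2-Ab1 were not called.

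**Figure D2:**
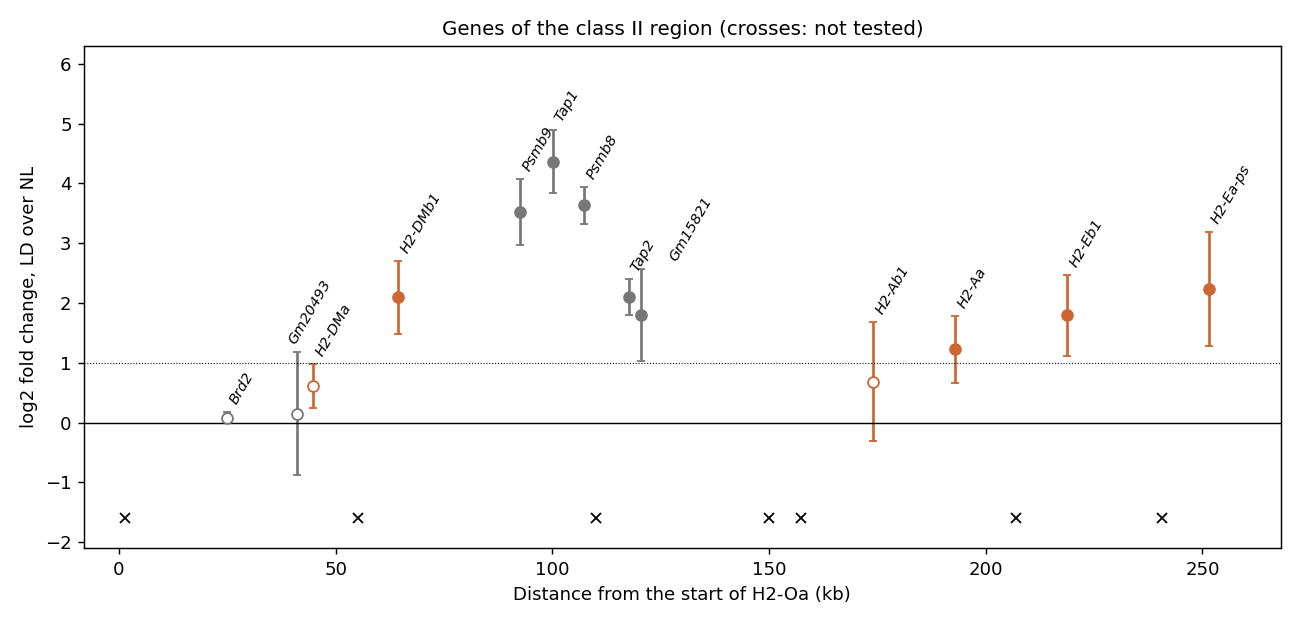
Log2 fold change, LD over NL, with its 95% limma interval (y axis) against distance from the start of H2-Oa in kb (x axis) for the 13 tested genes of the class II region, class II genes in orange and others in grey, filled where called and open where not. The largest values are those of Psmb9, Tap1 and Psmb8, with H2-DMb1 on one side and H2-Ab1, H2-Aa, H2-Eb1 and H2-Ea-ps on the other. Crosses mark the 7 genes that were not tested.

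The class I pathway gives a scale for these changes. All 10 of its listed genes were called higher, with no overlap between the groups and a median log2 fold change of 3.38, from 1.96 ± 0.20 (SE, limma adjusted p = 4.36e-05) in H2-D1, a class I heavy chain gene, to 5.49 ± 0.16 (limma adjusted p = 1.06e-08) in Nlrc5. Nlrc5 rose from 0.160 ± 0.043 to 11.6 ± 1.96 FPKM. The log2 ratio of Nlrc5 to Ciita (FPKM + 0.1) within a retina went from −1.14 ± 0.25 in NL to 4.51 ± 0.35 in LD (SD, n = 5 each), a change of 5.65 with an exact two-sided permutation p of 0.00794. The class I genes summed to 69.8 to 109.3 FPKM in NL and 414.7 to 558.4 FPKM in LD, and the 7 class II members to 3.76 to 5.0 and 7.42 to 10.8 FPKM.

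**Figure D3:**
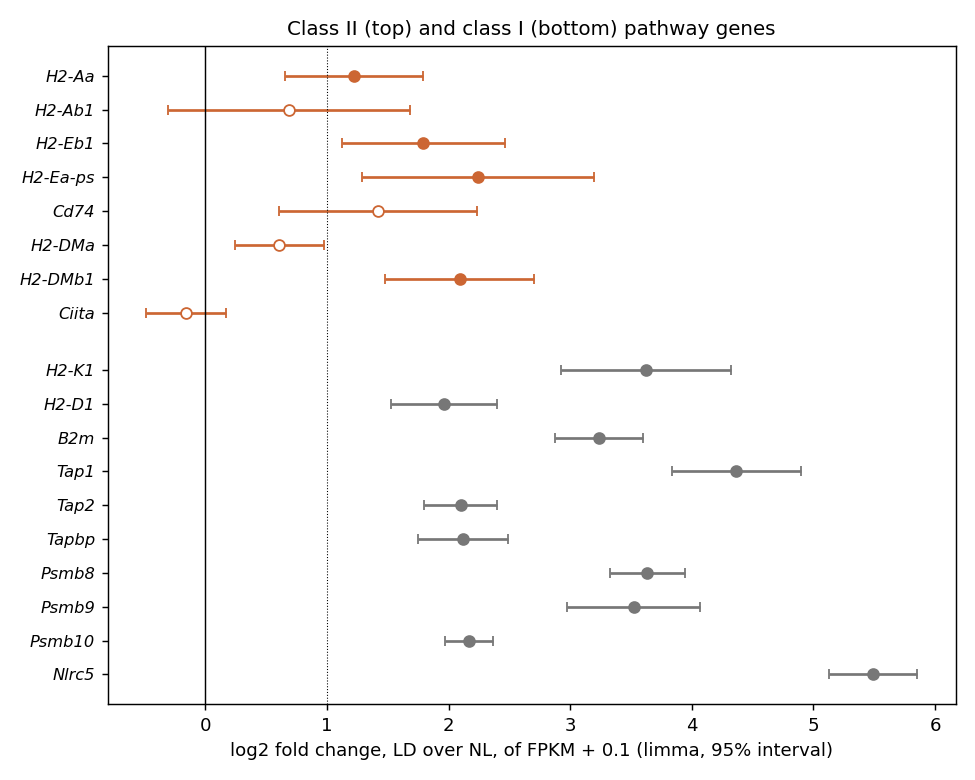
Log2 fold change, LD over NL, of FPKM + 0.1 with 95% limma intervals (x axis) for the class II members and H2-Ea-ps (orange) and 10 class I pathway genes (grey), filled where called. The dotted line marks a fold change of 2. The class I values run from 1.96 to 5.49 and the class II values from −0.16 to 2.24.

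Upstream of Ciita, the listed genes that carry the interferon-gamma signal gave 6 called higher, 0 lower and 6 not called of 12 tested. The largest was Socs3, a feedback inhibitor of cytokine signalling, at 4.46 ± 0.22 (SE, limma adjusted p = 3.21e-07), and the smallest Spi1, the myeloid factor PU.1, at 2.34 ± 0.26 (limma adjusted p = 9.54e-05). Named after their values were seen, Irf1 (3.52 ± 0.20, limma adjusted p = 8.29e-07) and Irf8 (3.24 ± 0.15, adjusted p = 1.67e-07) were also called higher. IRF1 is among the factors through which interferon-gamma acts on the inducible promoter of Ciita. Ifng itself had 0 reads in the NL retinas and 1 read in 1 of the 5 LD retinas. Its receptor genes and Jak1 and Jak2 were not called. The 7 factors that bind class II promoters, among them the RFX and NF-Y subunits, were 0 higher, 0 lower and 7 not called, with log2 fold changes from −0.39 to 0.21.

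**Figure D4:**
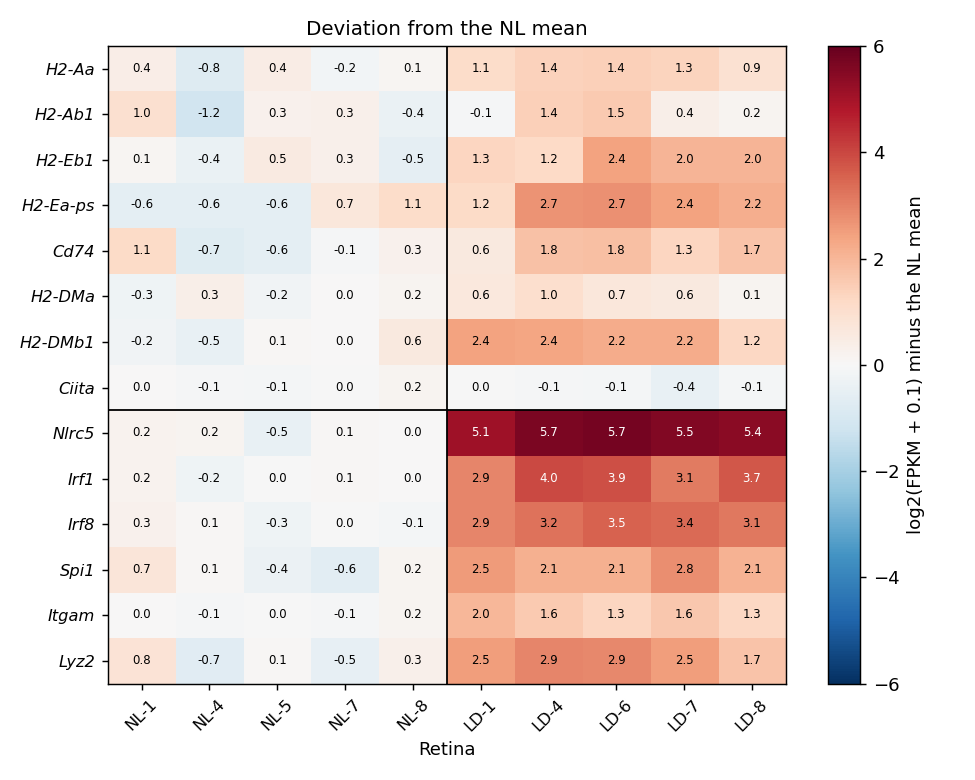
Log2(FPKM + 0.1) minus the NL mean of the gene in each of the 10 retinas (columns), printed in each cell and coloured from blue (below) to red (above), for 8 class II genes (above the line) and 6 regulators and myeloid genes (below it). The Ciita cells stay between −0.4 and 0.2, the Nlrc5 cells of the LD retinas lie between 5.1 and 5.7, and H2-Ab1 and Cd74 are highest in LD-4 and LD-6.

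Genes for the proteins that work beside class II molecules were counted by list. Of 7 endosomal processing genes, among them the cathepsins, 0 were called higher and 0 lower, although 4 had every LD retina above every NL retina. Ctsl, a cathepsin that trims the invariant chain, named after its values were seen, went from 16.6 ± 0.07 to 28.7 ± 4.4 FPKM (log2 fold change 0.77 ± 0.09, SE, limma adjusted p = 1.10e-04), short of a fold of 2. Of 6 tested costimulation genes, 3 were called higher, 0 lower and 3 not called, from Cd86 (1.19 ± 0.27, SE, limma adjusted p = 0.00713), a ligand of CD28, to Cd274 (3.93 ± 0.20, adjusted p = 3.64e-07), which encodes PD-L1. Cd86 was under the filter in all 5 NL retinas, and its call was lost in 14 of 23 alternatives, among them the leaving out of any single retina other than LD-8 (adjusted p up to 0.0194). The 4 tested genes of class II turnover, among them the ubiquitin ligase genes March1 and March8, were not called.

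Markers of cells that may carry class II moved in the same samples. Of 10 microglia markers, 5 were called higher and 5 not, with the largest change in Fcrls (3.18 ± 0.41, SE, limma adjusted p = 2.33e-04). The fold changes of those not called lay on both sides of 0, and the lowest was that of P2ry12, a receptor of resting microglia (−0.74 ± 0.33, adjusted p = 0.122), named after its value was seen. Their summed level was 20.7 to 27.4 FPKM in NL and 28.3 to 64.9 FPKM in LD. Of 6 tested monocyte and macrophage markers, 5 were called higher and 1 not, from Itgam (1.55 ± 0.18, adjusted p = 1.29e-04) to Lyz2 (2.51 ± 0.31, adjusted p = 1.71e-04). Among those called, Plac8 reached the filter in 0 NL retinas and passed it only with its LD values. The others listed were under the filter and are named after their values were seen. On few reads, Ccr2 and Ly6c2 had every LD retina above every NL retina, while Ms4a7, Mrc1 and Cd163 overlapped. The 11 listed summed to 2.06 to 4.15 FPKM in NL and 12.2 to 19.2 FPKM in LD. Of the leukocyte genes, 3 of 5 were called higher, from Ptprc (1.00 ± 0.18, adjusted p = 0.00171), at the limit of the fold, to Cd52 (2.36 ± 0.31, adjusted p = 2.46e-04), with sums of 4.67 to 6.12 and 10.4 to 19.1 FPKM. Ptprc reached the filter in 2 NL retinas and passed it only with its LD values, and its call was lost in 10 of 23 alternatives, among them the leaving out of NL-4, NL-5, NL-7, LD-6 or LD-7 (log2 fold change from 0.94). The highest microglial sum was in LD-1, at 64.9 FPKM, where the class II sum was 7.48 FPKM. LD-4, with the highest class II sum of 10.8 FPKM, had a microglial sum of 46.6 FPKM. The monocyte and macrophage sum, like the class II sum, was highest in LD-4 (19.2 FPKM) and LD-6 (18.9 FPKM). The part of these cells in the class II values was not tested.

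Of 7 tested dendritic cell markers, 2 were called higher and 5 not. Itgax, which macrophages express too, was at 2.45 ± 0.25 (SE, limma adjusted p = 5.48e-05), and Batf3 was at 1.19 ± 0.23 (adjusted p = 0.00291). In NL, 1 and 2 retinas reached the filter for these genes, which passed it only with their LD values. Batf3 lost its call in 4 of 23 alternatives, with an adjusted p up to 0.0510. Clec9a, Cd209a and Ccr7 had at most 3 reads in any retina, and the 10 listed genes summed to 2.24 to 2.47 FPKM in NL and 2.94 to 3.79 FPKM in LD. Of the B cell markers, 0 of 4 tested were called, Ms4a1 had 0 reads in all 10 retinas, and the sums were 1.34 to 1.94 FPKM in NL and 1.17 to 1.57 FPKM in LD. The others listed were under the filter and are named after their values were seen. Pax5 had 0 to 9 reads in NL and 7 to 40 in LD, with 4 LD retinas above every NL retina. Cd79b and Blk had at most 3 reads in any retina. Of 3 tested T cell markers, 1 was called, Lck (1.24 ± 0.19, adjusted p = 8.17e-04), while Cd3d, Cd3e, Trac and Cd28 had at most 3 reads. T cell sums were 2.28 to 3.29 FPKM in NL and 3.49 to 4.5 FPKM in LD. Most of these sums came from Lag3, which was not called and is named after its values were seen (mean 2.06 FPKM in NL and 2.65 FPKM in LD). Lck added a mean of 0.360 FPKM in NL and 0.973 FPKM in LD.

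Among cells of the retina itself, the 6 rod markers were all called lower, with the smallest change in Sag (−1.40 ± 0.21, SE, limma adjusted p = 5.93e-04), and summed to 7441 to 9096 FPKM in NL and 1017 to 2193 FPKM in LD. The 6 Müller glia markers were 2 higher (Gfap and Vim), 1 lower (Glul) and 3 not called, with sums of 842 to 1063 FPKM and 462 to 642 FPKM. Most of the NL sum and of its fall came from Glul, with means of 711 FPKM in NL and 165 FPKM in LD. Of the other markers, the mean of Rlbp1 was lower in LD, while those of Gfap, Vim, Slc1a3 and Aqp4 were higher. The 6 endothelial and 6 pigment epithelium markers were not called, with sums of 33.8 to 44.4 and 48.9 to 83.6 FPKM for the former and 51.0 to 134.2 and 57.3 to 110.9 FPKM for the latter. The endothelial sums, like those of the monocyte and macrophage markers, were highest in LD-4 (83.6 FPKM) and LD-6 (82.7 FPKM). In these retinas H2-Ab1, Cd74 and the class II sum were highest as well. Whether these go together was not tested.

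Within the groups, the members were not all highest in the same retinas. Over the 10 retinas, each taken as the deviation from its group mean in log2(FPKM + 0.1), H2-Ab1 (Pearson r = 0.953), H2-Aa (0.839) and Cd74 (0.723) followed the mean of the 7 members most closely. The r was 0.433 for H2-DMb1, 0.371 for H2-Eb1, 0.108 for Ciita and −0.03 for H2-DMa. Each member is part of that mean, and H2-Ab1 has the largest spread in it. NL-1 (0.303) and LD-6 (0.330) were the highest retinas of their groups, and NL-4 (−0.466) and LD-1 (−0.255) the lowest. Among 12607 protein-coding genes outside the lists whose mean reached 1 FPKM, those whose deviations were most like this profile were Arhgef3 (r = 0.945), Col4a5 (0.940), Rnh1 (0.937), Plxnb2 (0.930), Msrb3 (0.929), Kptn (0.925), Kctd11 (0.923), Fosl1 (0.923), Acads (0.919) and Gng5 (0.914). These are the highest of many correlations over 10 retinas that share libraries. Of the 10 genes, 1 was called, Fosl1, an AP-1 subunit, with a log2 fold change of 1.64 ± 0.07 (SE, limma adjusted p = 1.37e-07).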

How the data were processed

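The deposited file is 1 table of FPKM, computed by the authors for each gene and retina, with gene positions and lengths. The paper gives TRIzol extraction, paired reads of 150 bases and normalization by a sequencing company. The submitters' processing notes name TopHat2 2.0.9, Bowtie2 2.0.6 and the build mm8, but 53499 of 54532 genes (98.3%) have their GRCm38 position of GENCODE release M21, and GRCm38 is used here. The counting program is not given in the sources used here. Reads were aligned to a reference of another class II haplotype than that of BALB/c, and how many were lost so was not tested.

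FPKM times length gave whole multiples of 1 read (tolerance 0.01) for 100% of values, which gave 21343389 to 26832535 reads per NL and 18965090 to 23378090 per LD retina. The library size that divides the deposited FPKM values is the read total times a factor per retina. This factor was 0.951 to 0.968 in NL and 1.041 to 1.069 in LD, so it raised the NL values and lowered the LD values. Without it the median log2 fold change of all genes would be 0.11.

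Log2(FPKM + 0.1) was compared for the 24508 genes that reached 0.1 FPKM in 5 or more retinas, in limma 3.58.1 (R 4.3.3) with an intensity trend and Benjamini-Hochberg adjustment. Log2 fold changes understate those of genes near 0.1 FPKM. Ratios between members were compared by two-sided exact permutation tests in scipy 1.17.1 (Python 3.11.15, numpy 2.4.6, pandas 2.3.3). Plots used matplotlib 3.10.9, and the alignment of H2-DMb1 with H2-DMb2 used biopython 1.88. The model was run on simulated data with the same spread between retinas set for all genes. That run was not a test of the calls of the members, which rest on few reads. Intervals cover the spread between retinas, counting error included.

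The members and lists were chosen with earlier results of these data known. Named genes are the members, in each list the called genes of largest and smallest change and those at 0, genes sharing sequence with a member, and the 10 genes most alike. Some listed genes count in their lists but are not reported here. Samples were grouped by their titles. Alternatives changed the pseudocount, filter, scaling, trend, test, threshold, block and retinas included, and 1, the presence of Xist as a covariate, was chosen after seeing the data. The paper calls the 5 samples of a group biological replicates. The labels tie none of them to a mouse, so p-values measure the spread between these samples. Promoter sequences are from RefSeq (GRCm38.p6) and were matched by symbol to 4 of the 7 members.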

Additional observations from a re-analysis of the deposited data

Results flagged for a closer look

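Each group of 5 retinas was screened for a value lying apart from the other 4, in 96 groups of values from the genes named. Chance alone sets aside about 1 in 20 such groups, or 4.8 here, and 8 were found, so these values are listed without a reading. Among the members, H2-DMb1 in LD-8 was at 0.424 FPKM, beside 0.946 to 1.08 FPKM in the other LD retinas. Among regulators and class I genes, Nlrc5 in NL-5 was at 0.0870 FPKM (others 0.164 to 0.193) and Tap2 in NL-4 at 1.53 FPKM (others 1.08 to 1.21). In NL-1, Fcrls was at 1.42 FPKM (others 0.363 to 0.485), Cd52 at 0.749 FPKM (others 0.294 to 0.397) and Gfap at 23.1 FPKM (others 7.24 to 10.48). H2-Eb2 in LD-7 (0.0398 FPKM, 2 reads) and Ifng in LD-1 (0.0317 FPKM, 1 read) were the only LD retinas above 0 for these genes.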

How the results depend on the processing

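Of the 7 members, 3 were called, and 0 were called with a pseudocount of 1, with the filter of 1 FPKM in at least 5 retinas (2 members tested) and with the replicate number as a block. The count was 1 (H2-Eb1) with the 3 closest pairs averaged and 5 at an adjusted p under 0.05 with no fold minimum, and it ran from 2 to 4 when each retina was left out in turn. Leaving out NL-7, NL-8, LD-4, LD-6 or LD-7 lost H2-Aa, and leaving out NL-1 or LD-1 added Cd74, as did equal sums of FPKM (adjusted p = 0.00992) and FPKM without the factor per retina (adjusted p = 0.00880). Over all its alternatives the adjusted p was 8.28e-04 to 0.0174 for H2-Eb1, 7.99e-05 to 0.0288 for H2-DMb1, 0.00268 to 0.0597 for H2-Aa and 0.00304 to 0.173 for Cd74. With a pseudocount of 1, H2-Eb1, H2-DMb1 and H2-Aa, whose LD means were under 1 FPKM, fell under a fold of 2 by construction. The log2 fold change of Cd74 was 0.81 under that setting. No member changed direction.

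Among all genes, 1595 were called, and 816 with a pseudocount of 1, 808 with the replicate block, 6818 at an adjusted p under 0.05 with no fold minimum, and 1379 to 1603 with a retina left out. The 4 replicate numbers that both groups share did not pair the retinas: the deviations of same-numbered retinas had correlations of 0.06 (1), 0.07 (4), −0.01 (7) and −0.09 (8). The same 8 retinas without the replicate block gave 1182 genes and 2 members. Members with fewer than 10 reads in every NL retina limit what depth can show.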
